A study of Mus musculus with 12 samples.

Results

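Prostaglandins are local lipid signals, and the 10 genes described here cover their synthesis (Ptgs1, Ptgs2, Ptges, Ptgds), their uptake (Slco2a1) and their receptors for prostaglandin E2 (Ptger1, Ptger2, Ptger3, Ptger4) and prostaglandin F2 alpha (Ptgfr). They were chosen by name from the 25887 genes of the deposited tables, and all 10 were found. They were followed in RNA-seq libraries of mouse dermal papilla cells, primary cells sorted by fluorescence. The dermal papilla is a mesenchymal cluster that sits below the hair follicle and signals to its epithelium. The 4 groups held 3 libraries each. At postnatal day 20 (P20) they were wild type (WT) and Smo* females, both labelled telogen, when the follicle rests. At postnatal day 28 (P28) they were males, with WT labelled Anagen VI (full growth) and Smo* labelled anagen I-III (early growth). Smo* is a gain-of-function form of Smo, the membrane protein that passes on the Hedgehog signal, and was specific to the dermal papilla. Neither the driver of the mutation nor the markers used for sorting are given in the sources used here. Age, sex and hair cycle stage therefore cannot be told apart between P20 and P28, and genotype and labelled stage cannot be told apart at P28. The labels leave unsaid whether each library is a different mouse, and a p-value here refers to the spread among the libraries, part of which may be technical.

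Between 36323058 and 48926831 reads fell on genes in each library. Gli1, a target of Hedgehog signalling, rose in Smo* at both ages, 3.09-fold at P20 (limma adjusted p = 0.0449) and 2.86-fold at P28 (limma adjusted p = 0.000237). Smo itself had a normalized count of 5037 to 5225 in P20 WT and 6351 to 7528 in P20 Smo*, and of 5418 to 6144 in P28 WT and 7487 to 8694 in P28 Smo* (limma adjusted p = 0.111 and 0.0502). All 16 dermal papilla markers searched for were detected in the 4 groups. Their summed normalized count was 75999 to 91435 in P20 WT, 103359 to 142156 in P20 Smo* and 427951 to 526588 in P28 WT. In P28 Smo* it was 239786, 365218 and 65618, and the last of these libraries, replicate 3, stood apart: 15453 genes had a read there against 17337 to 17926 elsewhere, and its Spearman correlations across genes with its 2 replicates were 0.962 and 0.959 against at least 0.976 for the other pairs. Its summed adipocyte markers reached 13282 against 362 and 897 in the other P28 Smo* libraries. Several P28 Smo* results are given with and without replicate 3.

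Cyclooxygenases, encoded by Ptgs1 and Ptgs2, turn arachidonic acid into prostaglandin H2, which Ptges converts to prostaglandin E2 and Ptgds to prostaglandin D2. The 4 prostaglandin E receptors couple to different signals: those encoded by Ptger2 and Ptger4 raise cyclic AMP, that of Ptger3 mainly lowers it, and that of Ptger1 raises calcium. In skin, analogues of prostaglandin F2 alpha and prostaglandin E2 are known to promote hair growth, while prostaglandin D2 is known to inhibit it.

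The genes Ptger3 and Ptger4 carry the main finding, since their messages moved in opposite directions with genotype at P28, and the 250 bases before their RefSeq start sites (GRCm38.p6) are shown for that reason. The Ptger3 window is chr3:157566626-157566875 on the plus strand and the Ptger4 window is chr15:5244188-5244437 on the minus strand, and neither holds a GENCODE exon. Capitals mark the GC box, GGGCGG or its reverse complement CCGCCC.
Ptger3: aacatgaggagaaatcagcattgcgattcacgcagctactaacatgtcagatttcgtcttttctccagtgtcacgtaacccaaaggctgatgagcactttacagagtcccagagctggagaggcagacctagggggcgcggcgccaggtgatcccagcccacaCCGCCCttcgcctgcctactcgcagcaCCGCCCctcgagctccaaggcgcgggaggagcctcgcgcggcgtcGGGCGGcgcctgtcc
Ptger4: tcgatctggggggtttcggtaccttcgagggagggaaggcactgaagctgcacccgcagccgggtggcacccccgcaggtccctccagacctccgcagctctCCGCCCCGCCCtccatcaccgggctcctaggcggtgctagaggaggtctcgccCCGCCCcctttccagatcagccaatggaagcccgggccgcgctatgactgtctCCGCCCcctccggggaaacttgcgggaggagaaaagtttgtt
The Ptger3 window held 3 GC boxes and the Ptger4 window 4, of which 1 pair overlapped by a base. RefSeq windows were matched for 9 of the 10 genes, Ptger1 being the gene without an entry, and 6 of the 9 held a GC box (Ptgs2, Ptges, Slco2a1, Ptger3, Ptger4 and Ptgfr) against 32.7% of 32851 mouse windows of this length. GENCODE places exons in 3 of these 6 windows, over all 250 bases for Slco2a1 and Ptgfr and 183 for Ptgs2, so they are not wholly upstream in that annotation. The TATA box TATAAA, searched with its reverse complement TTTATA, was found in Slco2a1 alone among the 9, 29 bases before the RefSeq start and within a GENCODE exon, and in 12.4% of all windows. The GLI consensus GACCACCCA (reverse complement TGGGTGGTC; 0.225% of all windows) and the cAMP response element TGACGTCA (1.55%), which is its own reverse complement, were in 0 of the 9. These matches describe letters in a window and not binding, and the GC and TATA boxes were searched for after the windows had been seen.

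Levels were compared between genes as normalized counts per kb of exon (GENCODE vM21, GRCm38), with the mean over 3 libraries. In P20 WT the order was led by Ptges at 1783 per kb, Ptgs2 at 1297 and Ptgfr at 1123. Below them came Ptger3 at 334, Ptger4 at 197, Ptgs1 at 139, Ptger1 at 79.3 and Slco2a1 at 78.7 per kb. The order was thus headed by the machinery of prostaglandin E2 synthesis and the prostaglandin F receptor, while Ptger2 (2.65 per kb) and Ptgds (1.59) lay near the floor of detection. The SD of Ptgs2 (422 per kb) spanned the gap to Ptgfr, and Ptger1 and Slco2a1 differed by less than their SDs (15.9 and 8.45 per kb).

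In P28 WT the order was different: Ptger3 stood first at 1574 ± 109 per kb (SD, n = 3), above Ptgfr at 464, Ptges at 455 and Ptgs2 at 395, and the last 3 of these lay within their SDs of each other (58.5, 70.2 and 221 per kb). In P28 Smo* the highest mean was that of Ptgs2 at 1385 per kb with an SD of 1196, followed by Ptges at 641 and Ptgfr at 517, and Ptger3 stood at 228. In P20 Smo* Ptges came first at 946 ± 228 per kb and Ptgfr second at 811 ± 115, within their SDs of each other.

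**Figure D1:**
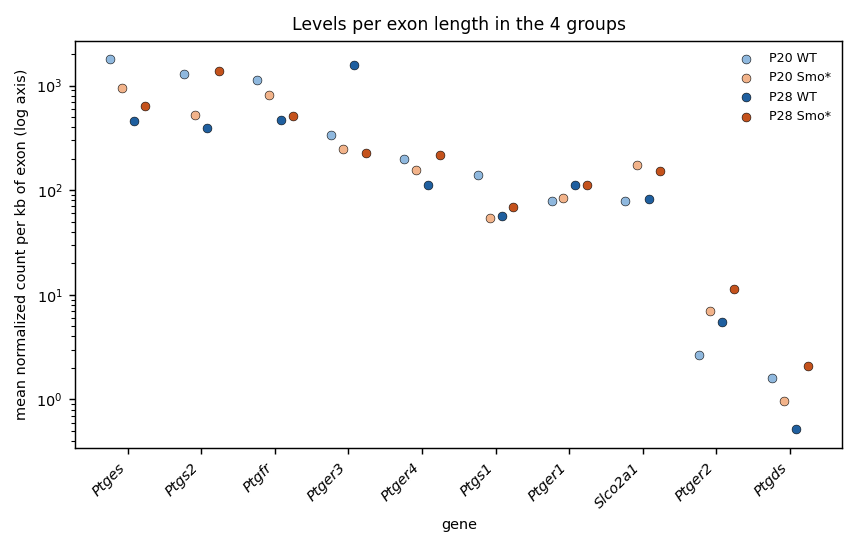
Mean normalized count per kb of exon of the 10 genes (log axis) in the 4 groups, 1 point for each group mean of 3 libraries, with genes ordered by their P20 WT level. Ptger3 stands at 1574 per kb in P28 WT and between 228 and 334 in the other groups, and Ptger2 and Ptgds lie below all others in each group.

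At P20 1 of the 9 members tested, the transporter gene Slco2a1, differed between the genotypes by limma at an adjusted p below 0.05, against 0.696% of 14645 genes. At P28 2 of 9 did, against 8.9% of 14757 genes, with the receptor genes Ptger3 lower and Ptger4 higher in Smo*. In WT, 6 of 9 members differed between P20 and P28, against 25.4% of 14790 genes, and in Smo* 1 of 9 did, against 3.46%. The genotype effect itself differed between the ages for 4 of 9 members, against 4.72%. The effect at P28 lay above that at P20 for 3 of these, against 1.89% of genes, and below it for 1, against 2.83%. Groups did not overlap for 7 of 9 members between the genotypes at P20 (16.4% of genes), for 4 of 9 between the genotypes at P28 (33.4%), for 8 of 9 between the ages in WT (45.1%) and for 3 of 9 between the ages in Smo* (24.4%). The authors' deposited table, from a count test, calls 3 members at P20, against 2.13% of its genes, and 4 at P28, against 16.8%. Ptgds fell below the filter on low values (a mean of 10) and was not tested. The median log2 difference of the 9 members was -0.45 for Smo* against WT at P20 and 0.50 at P28, beside 0.00 and -0.01 over all genes tested. It was -0.82 for P28 against P20 in WT and 0.37 in Smo*, beside -0.01 and -0.00 over all genes. Many of these comparisons share libraries, so they are not all independent of each other.

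**Figure D2:**
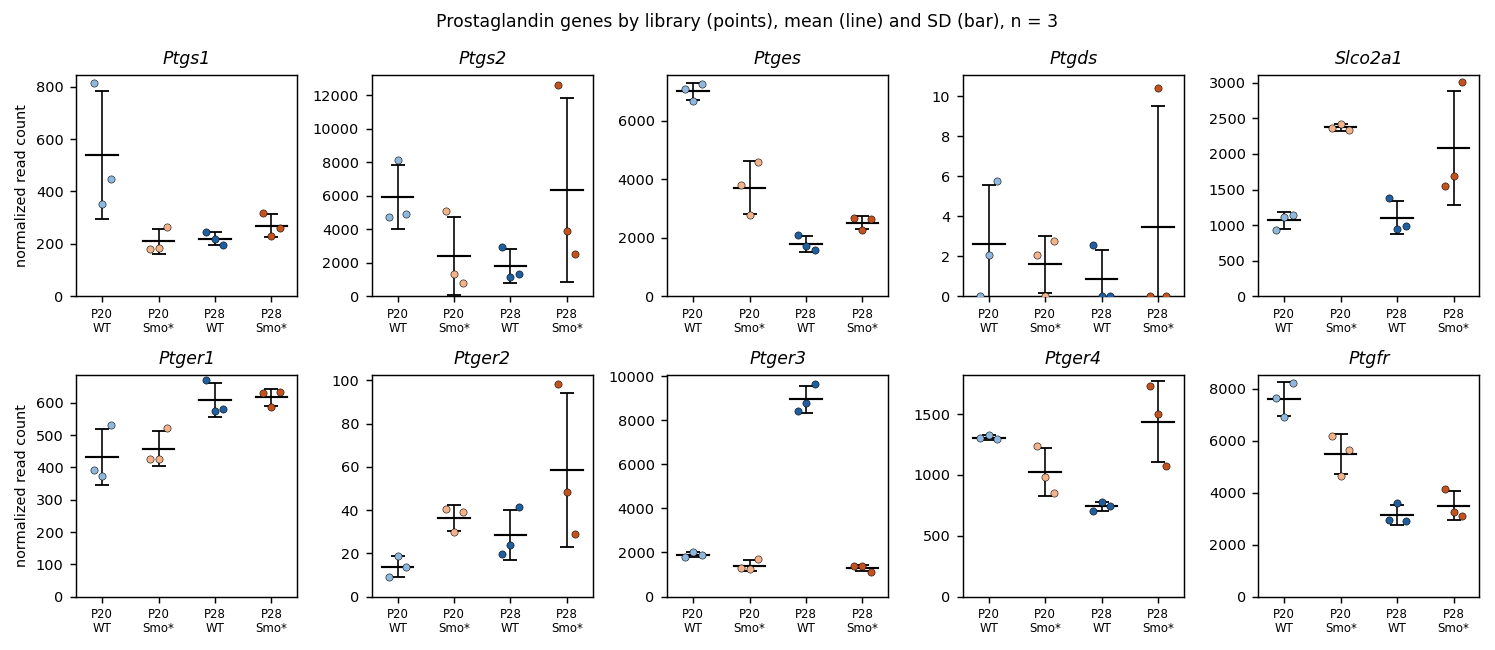
Normalized read count of each of the 10 genes in the 12 libraries (points), with the mean (line) and SD (bar, not drawn below 0) of 3 libraries per group, each panel on its own linear axis from 0. The 3 P28 WT libraries stand at 8434 to 9638 for Ptger3, above the 1121 to 2037 of the other 9.

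Ptgs1 (ENSMUSG00000047250, chr2:36230426-36252272, plus strand) encodes the constitutive cyclooxygenase COX-1. Its normalized count was 814, 354 and 449 in the P20 WT libraries and 179.7, 185 and 264 in P20 Smo*. It was 245, 219.7 and 195 in P28 WT and 317, 231 and 259.9 in P28 Smo*. All 3 P20 WT libraries lay above the other 9, and the other groups overlapped with each other. In WT, Ptgs1 fell between P20 and P28 by 1.20 on the log2 scale (SE 0.27, limma adjusted p = 0.00730). At P20 the log2 difference of Smo* against WT was -1.29 (SE 0.31), which missed the threshold (limma adjusted p = 0.134), while the authors' deposited table gives -1.24 with an adjusted p of 0.000472. At P28 the difference was 0.29 (95% interval -0.17 to 0.74, limma adjusted p = 0.391). The difference between these genotype effects was 1.58 (SE 0.39, limma adjusted p = 0.0400). That call ended without any 1 of 8 libraries (P20 Smo* replicates 1 and 2, P20 WT 1 and 3, P28 Smo* 1 and 3, P28 WT 2 and 3) and without the filter, with limma adjusted p up to 0.108, and 0.0521 without P28 Smo* replicate 3. The summed count of 10 macrophage and myeloid markers was 755 to 2045 in P20 WT, 536 to 1093 in P20 Smo*, 1043 to 1403 in P28 WT and 1209 to 1638 in P28 Smo*. Of the 8 tested at P20, 7 had a log2 difference below 0, against 7249 of 14645 genes. The median of the 8 was -1.15, and 0 passed. By replicate, the marker sum was 884, 2045 and 755 in P20 WT and 1093, 536 and 571 in P20 Smo*. Within each of these groups, the library with the highest sum had the lowest Ptgs1 count. The part of these markers in the Ptgs1 values was not tested. In bulk samples, fewer cells of a type and less RNA per cell cannot be told apart.

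Ptgs2 (ENSMUSG00000032487, chr1:150100031-150108227, plus strand) encodes the inducible cyclooxygenase COX-2 and varied widely between replicates. Its normalized count was 4750.1, 8167 and 4899.9 in P20 WT and 5080.5, 1354 and 789 in P20 Smo*. It was 2967, 1125 and 1329 in P28 WT and 12623, 3876 and 2532 in P28 Smo*. The ranges of the genotypes overlapped at both ages, and replicate 1 was the highest of its 3 libraries in P20 Smo*, P28 WT and P28 Smo*. The log2 difference of Smo* against WT was -1.71 (95% interval -3.05 to -0.37, limma adjusted p = 0.311) at P20 and 1.60 (0.26 to 2.94, limma adjusted p = 0.130) at P28, and the difference between them was 3.31 (SE 0.95, limma adjusted p = 0.0672). None of the 5 comparisons passed for Ptgs2 with all libraries in. Without P20 Smo* replicate 1 the P20 difference was -2.47 (limma adjusted p = 0.0246), and without P28 Smo* replicate 3 the P28 difference was 2.09 (limma adjusted p = 0.0445). The difference between the genotype effects was 4.08 (limma adjusted p = 0.0186) and 3.80 (limma adjusted p = 0.0422) in the same order. The difference between the ages in WT, -1.81, passed without P20 Smo* replicate 1 or P28 Smo* replicate 1 (limma adjusted p down to 0.0295). Ptgs2 belongs to the genes that cells switch on fast when handled. The summed count of 17 other immediate early and dissociation genes was 579070 to 627401 in P20 WT and 409709 to 504489 in P20 Smo*. At P20 17 of the 17 had a log2 difference below 0, against 7249 of 14645 genes. The median of the 17 was -0.58, although 0 passed. At P28 the sums ranged from 352484 to 654285 in WT and from 320703 to 589596 in Smo*. Of the 17, 9 lay above 0 and 8 below at P28, with a median of 0.15. Cxcl1 and Nr4a1, 2 of the 17, rose in Smo*, against 4.05% of all genes. The part of the 17 genes in the Ptgs2 values was not tested.

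Ptges (ENSMUSG00000050737, chr2:30889471-30929863, minus strand) encodes the inducible microsomal synthase of prostaglandin E2. Normalized counts of Ptges were 7091, 6691 and 7242 in P20 WT and 3793, 2786 and 4574 in P20 Smo*. It was 2099, 1703 and 1568 in P28 WT and 2662, 2269 and 2628 in P28 Smo*. The groups did not overlap within either age: WT lay above Smo* at P20 and below it at P28. Ptges fell in WT between P20 and P28 by 1.98 on the log2 scale (SE 0.17, limma adjusted p = 1.07e-05), from a mean of 7008 ± 285 to 1790.3 ± 276 (SD, n = 3). In Smo* the corresponding log2 difference was -0.54 (95% interval -0.89 to -0.18, limma adjusted p = 0.0878). The genotype difference was -0.94 at P20 (SE 0.17, limma adjusted p = 0.0588) and 0.50 at P28 (SE 0.14, limma adjusted p = 0.0675), each just short of the threshold. The authors' deposited table calls both, at -0.88 (adjusted p = 0.000132) and 0.47 (adjusted p = 0.0491). Without P28 Smo* replicate 3 the P28 genotype difference was 0.47 (limma adjusted p = 0.101). The difference between the 2 genotype effects was 1.44 (SE 0.23, limma adjusted p = 0.00576) and passed in all 19 alternatives. It was 1.41 without P28 Smo* replicate 3 (limma adjusted p = 0.00942).

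Ptgds (ENSMUSG00000015090, chr2:25466709-25470046, minus strand) encodes the lipocalin-type synthase of prostaglandin D2 and was barely detected. Its reads numbered 0, 2 and 6 in the P20 WT libraries, 2, 0 and 3 in those of P20 Smo*, 3, 0 and 0 in P28 WT and 0, 11 and 0 in P28 Smo*. Its highest normalized count was 10.4, in P28 Smo* replicate 2. The groups overlapped, and no difference was detectable at this depth. Hpgds, the other prostaglandin D2 synthase, was also low, with normalized counts between 1.07 and 27.3 in the 12 libraries.

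Slco2a1 (ENSMUSG00000032548, chr9:102988712-103096002, plus strand) encodes the transporter that carries prostaglandins into cells. Its normalized count was 935, 1115 and 1148 in P20 WT and 2358, 2426 and 2333 in P20 Smo*. It was 1378, 950.2 and 989 in P28 WT and 1552, 1697 and 3009 in P28 Smo*. The Smo* libraries lay above the WT libraries at both ages, with a narrow range in P20 Smo* and 1 high library, replicate 3, in P28 Smo*. At P20 Slco2a1 rose 2.23-fold in Smo* (log2 1.16, SE 0.11, limma adjusted p = 0.00942), beside 0.485% of genes called higher at any size. The call ended in 1 of 15 alternatives, without P20 WT replicate 2, where the log2 value was 1.19 (limma adjusted p = 0.0574). At P28 the log2 difference was 0.87 (95% interval 0.27 to 1.47, limma adjusted p = 0.0829), and without P28 Smo* replicate 3 it was 0.57 (limma adjusted p = 0.0841). The authors' deposited table calls Slco2a1 at P28 as well, at 0.86 (adjusted p = 0.00208). The genotype effects of the ages differed by -0.29 (95% interval -0.96 to 0.38, limma adjusted p = 0.626). Between P20 and P28, the log2 difference was 0.04 in WT (95% interval -0.44 to 0.51) and -0.25 in Smo* (-0.73 to 0.22). Without P28 Smo* replicate 3 the Smo* difference between the ages was -0.55 (limma adjusted p = 0.0598). The genotype effects then differed by -0.59 (limma adjusted p = 0.137).

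Slco2a1 is also known in endothelial cells. The summed count of 9 endothelial markers was 1604 to 3242 in P20 WT and 2689 to 2975 in P20 Smo*, where 0 of 9 passed and 3 of 9 lay above 0. Of these, Cdh5 was 491 to 782 in P20 Smo* against 75.7 to 431 in P20 WT. Kdr was 804 to 1072 against 451 to 592, while 6 of 9 markers lay below 0 at P20. At P28 the sums were 1706 to 3314 in WT and 3555 to 6136 in Smo*. There 9 of 9 lay above 0, with a median log2 difference of 1.93, and 3 (Cdh5, Pecam1 and Vwf) rose, against 4.05% of all genes. The part of these markers in the Slco2a1 values was not tested.

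Ptger1 (ENSMUSG00000019464, chr8:83666678-83672753, plus strand) encodes the receptor EP1. The normalized count of Ptger1 was 391, 375 and 533 in P20 WT, 427, 427 and 521 in P20 Smo*, 671, 575 and 582 in P28 WT and 631, 588 and 635 in P28 Smo*. The genotypes overlapped at both ages, and every P28 library lay above every P20 library. The log2 difference of Smo* against WT was 0.09 at P20 (95% interval -0.31 to 0.50) and 0.02 at P28 (-0.28 to 0.33). In WT Ptger1 rose between P20 and P28 by 0.51 (SE 0.15, limma adjusted p = 0.0296), a call that ended without any 1 of 5 libraries (P20 WT replicates 1 and 2, P28 WT 1, 2 and 3; limma adjusted p up to 0.116). In Smo* the difference was 0.44 (95% interval 0.10 to 0.77, limma adjusted p = 0.121). All Ptger1 values are uncertain, owing to an item not reported here.

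Ptger2 (ENSMUSG00000037759, chr14:44988195-45003820, plus strand) encodes EP2 and was the lowest of the 9 members tested. Its normalized count was 9.04, 18.7 and 13.5 in P20 WT (8 to 18 reads) and 40.3, 29.6 and 39.2 in the P20 Smo* libraries (34 to 43 reads). It was 19.6, 23.8 and 41.4 in P28 WT and 98.1, 48.4 and 28.9 in P28 Smo*. The genotypes did not overlap at P20. At P28 they overlapped through Smo* replicate 3 (28.9), while Smo* replicates 1 and 2 lay above all WT libraries. The log2 difference was 1.38 at P20 (95% interval 0.44 to 2.33, limma adjusted p = 0.243) and 0.92 at P28 (-0.33 to 2.17, limma adjusted p = 0.321), and neither passed. Without P28 Smo* replicate 3 the P28 difference was 1.33 (limma adjusted p = 0.132).

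Ptger3 (ENSMUSG00000040016, chr3:157566892-157645888, plus strand) encodes EP3 and had the largest differences among the 9 genes in the P28 genotype comparison and in WT between the ages. Normalized counts of Ptger3 were 1801, 2037 and 1866 in P20 WT and 1279.7, 1242 and 1701 in P20 Smo*. It was 8434, 8794 and 9638 in P28 WT and 1388, 1375 and 1121 in P28 Smo*. The P28 WT libraries stood far above all others, P20 WT came next without overlapping either Smo* group, and the Smo* groups overlapped each other. In WT Ptger3 rose 4.71-fold between P20 and P28 (log2 2.23, SE 0.13, limma adjusted p = 9.09e-07), beside 13.5% of genes called higher at any size. In Smo* the log2 difference between the ages was -0.11 (95% interval -0.40 to 0.18, limma adjusted p = 0.657).

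At P28 Ptger3 was accordingly 6.93-fold lower in Smo* than in WT (log2 -2.79, SE 0.13, limma adjusted p = 9.56e-05), beside 4.85% of genes called lower at any size. It ranked 2 by p-value among 14757 genes, and it ranks 1 among 20400 in the authors' deposited table, which gives -2.71 with an adjusted p of 2.85e-69. The call held in all 15 alternatives, with log2 values from -2.85 to -2.69, and was -2.69 without P28 Smo* replicate 3 (limma adjusted p = 3.23e-05). At P20 the log2 difference was -0.45 (SE 0.14, limma adjusted p = 0.269). The difference between the 2 genotype effects was -2.35 (SE 0.19, limma adjusted p = 7.96e-05), which passed in all 19 alternatives. The summed dermal papilla markers were also highest in P28 WT, and Corin, a marker of these cells, was 25.1-fold lower in P28 Smo* (limma adjusted p = 0.00795). Of the 16 markers, 5 fell and 1 rose in Smo* at P28, against 4.85% and 4.05% of all genes. Regardless of the threshold, 14 of them lay below 0 and 2 above. Their median log2 difference was -1.46, beside -0.01 over all genes tested. Within P28 Smo* the marker sum of replicate 3 was 65618 against 239786 and 365218, while Ptger3 was 1121 against 1388 and 1375. The part of the marker genes in the Ptger3 result was not tested.

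Ptger4 (ENSMUSG00000039942, chr15:5206661-5244187, minus strand) encodes EP4. Its normalized count was 1300.0, 1327 and 1292 in P20 WT and 1239, 983 and 853 in P20 Smo*. It was 707, 778 and 741 in P28 WT and 1733, 1498 and 1076 in P28 Smo*. The genotypes did not overlap at either age: WT lay above Smo* at P20 and below it at P28, with a wider spread among the Smo* libraries. Ptger4 rose 1.90-fold in P28 Smo* (log2 0.93, SE 0.18, limma adjusted p = 0.0191), beside 4.05% of genes called higher at any size. The call ended when any 1 of the P28 libraries other than Smo* replicate 3 was left out (limma adjusted p = 0.0501 to 0.0762), and without Smo* replicate 3 the log2 value was 1.12 (limma adjusted p = 0.00139). In WT Ptger4 fell between P20 and P28 by 0.82 (SE 0.17, limma adjusted p = 0.00464), beside 11.9% of genes called lower at any size. In Smo* the difference was 0.48 (95% interval 0.10 to 0.85, limma adjusted p = 0.129), and without P28 Smo* replicate 3 it was 0.67 (limma adjusted p = 0.0211). The P20 genotype difference was -0.37 (95% interval -0.70 to -0.03, limma adjusted p = 0.399). The difference between the genotype effects was 1.29 (SE 0.24, limma adjusted p = 0.0125) and passed in all 19 alternatives. Exons of Ptger4 overlap those of Ttc33 on the opposite strand. The libraries came from a directional kit, but the labels do not say if strand entered the counting, so the Ptger4 values are uncertain to that extent. Ttc33 had a mean of 486 and a log2 difference of -0.50 (SE 0.19, limma adjusted p = 0.150) at P28, opposite in sign to that of Ptger4.

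The balance of the 4 prostaglandin E receptors was compared within each library, where library scaling cancels. The ratio of Ptger3 to Ptger4, per kb of exon, was 13.9, 13.2 and 15.2 in P28 WT and 0.936, 1.07 and 1.22 in P28 Smo*. It was 1.62, 1.79 and 1.69 in P20 WT and 1.21, 1.48 and 2.33 in P20 Smo*. The P28 WT libraries thus stood apart from the other 9, and the P20 genotypes overlapped. Of the summed level of the 4 receptors per kb, Ptger3 made up 87.3 ± 0.905% in P28 WT (SD, n = 3) and 40.2 ± 1.75% in P28 Smo*. Its share was 54.5 ± 2.11% in P20 WT and 50.05 ± 5.73% in P20 Smo*. The share of Ptger4 was 6.20 ± 0.397% in P28 WT and 37.7 ± 3.65% in P28 Smo*. The ratio and the shares are given as descriptions and were not tested. They were added after the values of Ptger3 and Ptger4 had been seen. The ratio restates the opposite differences of these genes at P28 and is not separate support for them. The shares, unlike the ratio, include Ptger1, at 6.22% in P28 WT and 20.2% in P28 Smo*, and the Ptger1 values are uncertain. Both the ratio and the shares include Ptger4, whose values are uncertain because of the exon overlap with Ttc33. The receptor known to lower cyclic AMP thus made up most of the prostaglandin E receptor message in P28 WT, and about the same share as Ptger4 in P28 Smo*.

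**Figure D3:**
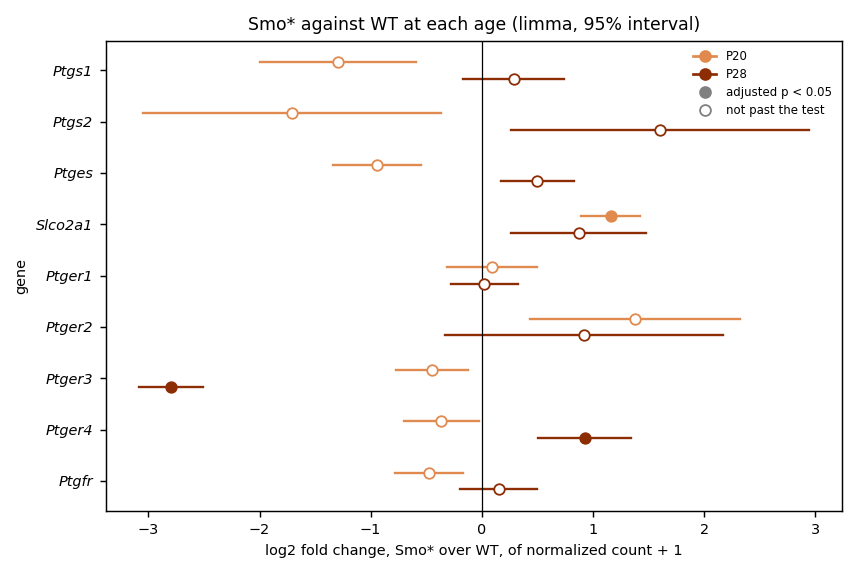
Log2 fold change of Smo* over WT, on normalized count + 1, at P20 and P28 for the 9 genes tested, with 95% intervals from limma and filled points for an adjusted p under 0.05. Slco2a1 is filled at P20 (1.16), and Ptger3 (-2.79) and Ptger4 (0.93) at P28.

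Ptgfr (ENSMUSG00000028036, chr3:151796502-151837630, minus strand) encodes FP, the receptor at which latanoprost-type drugs act. Ptgfr had a normalized count of 7667, 6923 and 8238 in P20 WT and 6189.7, 4653 and 5647 in P20 Smo*. It was 2935, 3602 and 2898 in P28 WT and 4137, 3266 and 3105 in P28 Smo*. All P20 libraries lay above all P28 libraries, the genotypes did not overlap at P20, and they did at P28. Ptgfr fell between P20 and P28 by 1.28 in WT (SE 0.15, limma adjusted p = 9.32e-05) and by 0.65 in Smo* (SE 0.15, limma adjusted p = 0.0361). The Smo* call ended without any 1 of 5 libraries (P20 Smo* replicates 1 and 3, P28 Smo* 1, 2 and 3), with limma adjusted p up to 0.112, and was -0.57 without P28 Smo* replicate 3 (limma adjusted p = 0.0509). The genotype differences were -0.48 at P20 (95% interval -0.78 to -0.17, limma adjusted p = 0.212) and 0.15 at P28 (-0.19 to 0.50, limma adjusted p = 0.555). They differed by 0.63 (95% interval 0.18 to 1.07, limma adjusted p = 0.101).

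Between the ages in WT, then, 2 members rose (Ptger1 and Ptger3), against 13.5% of genes, and 4 fell (Ptgs1, Ptges, Ptger4 and Ptgfr), against 11.9%. Ptgs2 had a log2 difference of -1.81 (95% interval -3.26 to -0.35, limma adjusted p = 0.0680) and Ptger2 of 0.97 (-0.08 to 2.03, limma adjusted p = 0.165). In Smo* only Ptgfr passed, in the direction taken by 1.47% of genes, while Ptgs2 had a log2 difference of 1.50 (0.04 to 2.96, limma adjusted p = 0.207) and Ptgs1 of 0.37 (-0.22 to 0.97, limma adjusted p = 0.445). For Ptges, Ptger3, Ptger4 and Ptgs1 the age effects of WT and Smo* differed by the same interaction term given above for the genotype effects. For the other 5 tested members that term did not pass.

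**Figure D4:**
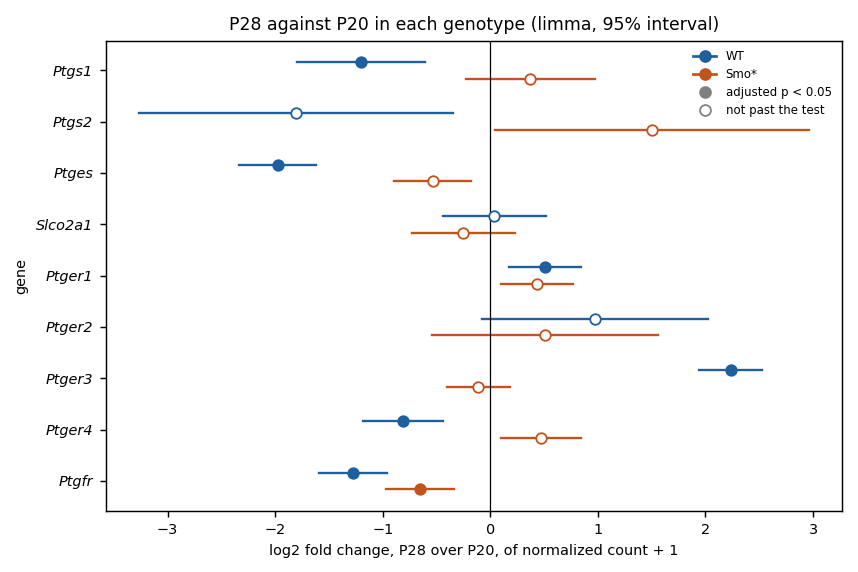
Log2 fold change of P28 over P20, on normalized count + 1, in WT and Smo* for the 9 genes tested, with 95% intervals from limma and filled points for an adjusted p under 0.05. Ptger3 stands at 2.23 in WT and -0.11 in Smo*, and Ptges at -1.98 in WT and -0.54 in Smo*.

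Over the 12 libraries, the genes most like Ptger3 among 12488 others with a mean of at least 50 were Gpr155 (Pearson r = 0.986 on log2 values), Chst7 (0.981) and Mid2 (0.980). Without the 3 P28 WT libraries, which stand apart, the values over 9 libraries were 0.786, 0.738 and 0.585. Gpr155 was 2952 ± 526 (SD, n = 3) in P28 WT and 365 to 521 as the means of the other groups. For Ptgfr the most alike were Ints13 (0.969), Stag1 (0.965) and Per2 (0.959), with 0.966, 0.960 and 0.956 over the same 9 libraries. These are descriptions over libraries that share groups.

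A list of 31 other genes of prostaglandin and related lipid metabolism was described in the same way. At P20, 0 of 26 tested rose and 2 fell in Smo*, against 0.485% and 0.212% of all genes: Ptgis, the prostacyclin synthase, by 1.30 on the log2 scale (limma adjusted p = 0.0150) and Akr1c18, an aldo-keto reductase that also acts on steroids, by 2.02 (limma adjusted p = 0.0150). Both calls ended without P20 WT replicate 2 (limma adjusted p = 0.0783), and that of Ptgis also without P20 Smo* replicate 2. At P28, 0 of 25 rose and 1 fell, against 4.05% and 4.85% of all genes. That gene was Ptgr2, which encodes a prostaglandin reductase and fell by 0.46 (limma adjusted p = 0.0495). The call ended in 7 of 15 alternatives, namely without any 1 of the 6 P28 libraries and without the filter (limma adjusted p up to 0.189, and 0.0721 without Smo* replicate 3). The median log2 difference of the list was -0.13 at P20 and 0.02 at P28.

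The prostacyclin pair of this list, a synthase and its receptor, is given by library. The normalized count of Ptgis was 625, 764 and 717 in P20 WT, 279, 256 and 319 in P20 Smo*, 623, 399 and 315 in P28 WT and 663, 426 and 753 in P28 Smo*. The genotypes were apart at P20 and overlapped at P28, and the difference between the genotype effects was 1.78 (SE 0.35, limma adjusted p = 0.0167). That difference was 1.61 without P28 Smo* replicate 3 (limma adjusted p = 0.0266). Ptgir, the prostacyclin receptor, was 2057, 865 and 875 in P20 WT, 635, 442 and 441 in P20 Smo*, 304, 309 and 274 in P28 WT and 205, 137 and 207 in P28 Smo*. Each group thus lay apart from the other of its age, with 1 high P20 WT library. The genotypes were apart for 16.4% of all genes at P20 and 33.4% at P28. Neither genotype difference of Ptgir passed: it was -1.22 at P20 (limma adjusted p = 0.195) and -0.71 at P28 (limma adjusted p = 0.0858). The authors' deposited table gives -1.19 at P20 (adjusted p = 0.00231) and -0.61 at P28 (adjusted p = 0.131). Ptgir fell between the ages by 1.97 in WT (limma adjusted p = 0.000672) and by 1.47 in Smo* (limma adjusted p = 0.0270). The WT call held in all 19 alternatives, and the Smo* call ended without P20 Smo* replicate 1 or 3 or P28 Smo* replicate 1 or 2 (limma adjusted p up to 0.0831).

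Between the ages in WT, 6 of 27 listed genes rose and 3 fell, against 13.5% and 11.9% of all genes, so the share that fell lay near the background. Those that rose were Mgll, the monoacylglycerol lipase, which can supply arachidonic acid (0.85, limma adjusted p = 0.0138), Ptgr2 (0.58, limma adjusted p = 0.00533), the carbonyl reductase gene Cbr1 (0.56), the phospholipase gene Pla2g6 (0.43), Fam213b (0.60), now named Prxl2b, and Zadh2 (0.39), now named Ptgr3. The last 4 had limma adjusted p of at most 0.0461. The call of Ptgr2 held in all 19 alternatives, and that of Mgll ended without P20 WT replicate 1 or P28 WT replicate 3 (limma adjusted p up to 0.0563). Of 19 alternatives, Cbr1 lost its call in 5, Pla2g6 in 6, Zadh2 in 6 and Fam213b in 7, mostly where 1 WT library was left out. Those that fell were Ptgir, Ptgfrn, a partner protein that inhibits the prostaglandin F receptor, by 0.66 (limma adjusted p = 0.00171), and Pla2g4a, the cytosolic phospholipase A2 that frees arachidonic acid, by 0.54 (limma adjusted p = 0.0407). The Pla2g4a call ended in 8 of 19 alternatives, without P20 Smo* replicate 1 or 3, any P20 WT library, P28 WT replicate 2 or 3, or the filter (limma adjusted p up to 0.141). In Smo* 2 rose, Mgll by 1.11 (limma adjusted p = 0.0240) and Ptgis by 1.07 (limma adjusted p = 0.0417), and 1 fell, Ptgir, against 1.98% and 1.47% of all genes. The Mgll call ended without P20 Smo* replicate 1 or 2 or P28 Smo* replicate 1 (limma adjusted p up to 0.0626). The Ptgis call ended in 9 of 19 alternatives (limma adjusted p up to 0.114), held among the Smo* libraries left out only without P28 Smo* replicate 2, and was 0.90 without P28 Smo* replicate 3 (limma adjusted p = 0.0638). The genotype effects of the ages differed for 2 of 27, Ptgis and Ptgfrn (0.77, SE 0.16, limma adjusted p = 0.0232), against 4.72% of all genes. The Ptgfrn call ended without P20 Smo* replicate 3, P20 WT replicate 2 or P28 WT replicate 2 or 3 (limma adjusted p up to 0.0634). Ptgfrn was 30669, 30666 and 28148 in P20 WT, 26239, 24970.3 and 24038 in P20 Smo*, 21282, 19090.3 and 16546 in P28 WT and 27133, 27360 and 26650 in P28 Smo*.

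**Figure D5:**
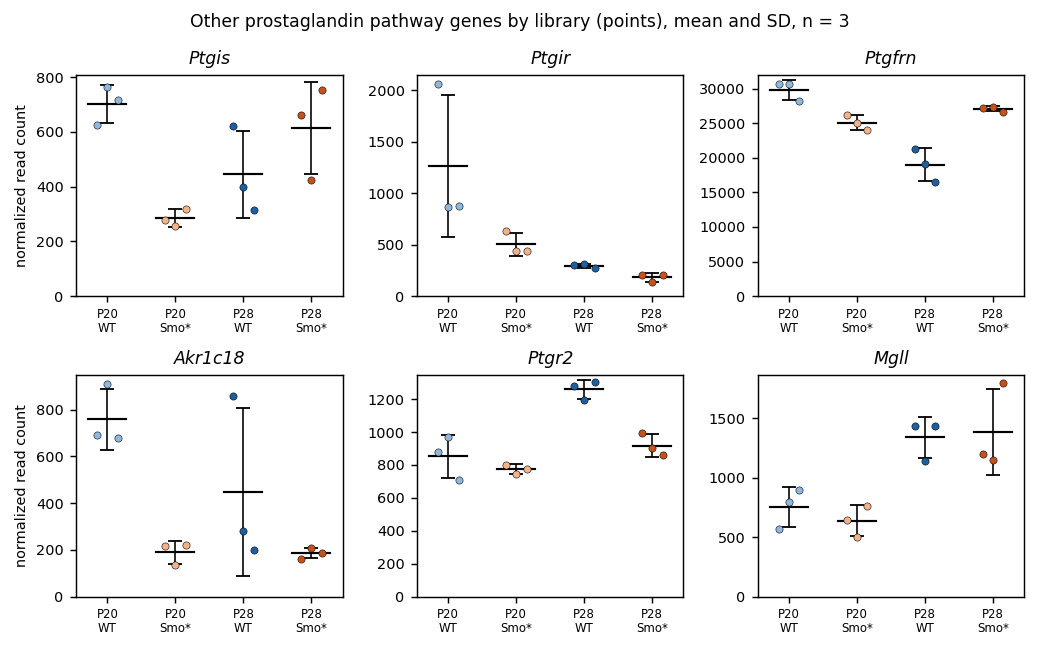
Normalized read count of Ptgis, Ptgir, Ptgfrn, Akr1c18, Ptgr2 and Mgll in the 12 libraries (points), with the mean (line) and SD (bar) of 3 libraries per group, chosen for display after their values were seen. P28 WT is the lowest group for Ptgfrn, and Ptgir lies lower at P28 than at P20 in both genotypes.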

How the data were processed

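RNA was taken from sorted cells, depleted of ribosomal RNA and made into libraries with a directional kit, per the labels' protocols. The builds mm10 and GRCm38.p4 and the tools DESeq2, HTSeq, TopHat2 (version 2) and Trimmomatic are named in the submitters' processing notes. The labels do not say if strand entered the counting. An item that bears on the Ptger1 values is not reported here, and those values are uncertain. The deposited signal values are gene counts divided by 1 size factor per library. Whole reads were recovered from them (100% of values within 0.01 reads), and both deposited tables are on 1 scale. The authors deposited log2 fold changes of WT over Smo*, turned here to Smo* over WT, with their standard errors, a test statistic (score) and p-values with adjusted p-values. No column was left unused (0), and 0 pairs of libraries were identical. Depth was 36323058 to 48926831 reads on genes per library.

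Gene names came from GENCODE vM21 (GRCm38), which named 25639 of 25887 identifiers (99.0%). Genes with a mean of at least 10 were tested with limma 3.58.1 (R 4.3.3) with a trend, on log2(normalized count + 1), with Benjamini-Hochberg adjustment over all genes tested and a threshold of 0.05. Genotype effects used the 6 libraries of an age, and the interaction and the age comparisons 1 fit of the 12 libraries. Fold changes are on the log2(count + 1) scale, which understates those of low genes. The alternatives were TMM scaling, no filter, a minimum mean of 50, pseudocounts of 0.5 and 5, the recovered reads in DESeq2 1.42.0 and in edgeR 4.0.16, limma on 12 libraries, the authors' deposited table, and each library left out. The fit was tested on simulated data. The text names all 10 members, each listed pathway gene that passed in any comparison, and the 3 genes most like Ptger3 and Ptgfr. Hpgds and Alox15 were named after their values were seen. Members and lists were chosen with earlier results of these data known. Of the marker lists, those with values beside a result are given, and the remaining lists are in the closing section.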

Additional observations from a re-analysis of the deposited data

Results flagged for a closer look

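For 6 genes the difference between Smo* and WT at P28 was not the same as at P20, by the interaction term of the 12-library limma fit. The difference of the log2 effects, P28 minus P20, was -2.35 for Ptger3, 1.58 for Ptgs1, 1.44 for Ptges and 1.29 for Ptger4. Among the other listed pathway genes it was 1.78 for Ptgis and 0.77 for Ptgfrn. The calls of Ptger3, Ptges, Ptger4 and Ptgis held in all 19 alternatives. The call of Ptgfrn ended in 4 of 19, with adjusted p up to 0.0634, and that of Ptgs1 in 9 of 19. Age, sex and hair cycle stage differ together between P20 and P28.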

How the results depend on the processing

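TMM scaling, the stricter filter, both pseudocounts and edgeR moved none of the counts of calls by over 1.5 times. DESeq2 on the recovered reads called 480 genes and 3 members at P20, 2312 and 4 at P28, 1615 and 2 between the ages in Smo*, and 1482 genes for the interaction, against 102, 1, 1313, 2, 511, 1 and 698. Limma on 12 libraries called 2 members at P20 and 2058 genes at P28. The authors' deposited table called 342 genes and 3 members at P20 and 2880 and 4 at P28. With 1 library left out, the genes called ranged from 8 to 129 at P20, 461 to 1619 at P28, 2336 to 4423 between the ages in WT, 49 to 1049 between the ages in Smo* and 254 to 922 for the interaction. The members called ranged from 0 to 2, 1 to 3, 5 to 7, 0 to 2 and 3 to 4 in the same order. The lowest counts came without P20 WT replicate 2 (8), P28 WT replicate 3 (461, 2336 and 254) and P28 Smo* replicate 1 (49). The cause of these shifts was not tested.

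Leaving out a library turned the sign of 5 small differences that had not passed: Ptger1 at P20 (-0.0025 to 0.25), at P28 (-0.016 to 0.095) and for the interaction (-0.23 to 0.026), Slco2a1 between the ages in WT (-0.13 to 0.14) and Ptger3 between the ages in Smo* (-0.20 to 0.032). Where a group was left with 2 libraries, the others set part of its spread. Depth limits Ptgds and Ptger2 most, with at most 11 and 89 reads in a library. No paired analysis was run, because each title carries its own number, which no other sample shares, and the titles name no litter. A litter shared between libraries is therefore possible and was not modelled.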

Other observations

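The lipoxygenase genes of the pathway list were low. Alox15, a lipoxygenase gene, had a normalized count of 53.5 in P28 Smo* replicate 3 and between 0 and 3.12 in the other 11 libraries, while Alox5 and Alox12 ranged from 3.39 to 24.9 and from 2.85 to 31.0. Hpgd, which encodes the enzyme that inactivates prostaglandins, stood at 1249.5 per kb in P20 WT and 1378 in P28 WT.

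The remaining marker lists gave these sums of normalized counts over the 12 libraries: 234956 to 414175 for 10 dermal fibroblast genes, 6600 to 20117 for 8 dermal sheath and smooth muscle genes, 11265 to 21765 for 6 pericyte genes, 17.4 to 280 for 8 mast cell genes, 268 to 1341 for 10 keratinocyte genes, 912 to 2046 for 7 melanocyte genes and 385 to 1381 for 6 Schwann cell genes. The 6 adipocyte genes summed to 271 to 4273 at P20 and to 362 to 13282 at P28.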
